A study of Mus musculus with 8 samples.

Results

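The dLGN-only regions are 1783 stretches of open chromatin that had a strong peak in every library of the dorsal lateral geniculate nucleus (dLGN) and no peak of any strength in any library of brain sections. They were found by merging the peaks of all 8 ATAC-seq libraries into 443327 regions and keeping those with a −log10 p of at least 20 in all 4 dLGN libraries and no section peak. ATAC-seq uses the transposase Tn5, which cuts accessible DNA and inserts sequencing adapters, and the −log10 p is the authors' own value for how far a peak stands above its local background. The measured presence and −log10 p of peaks therefore chose the members, and both are given below as a description, with no test. The 1783 were 3.74% of the 47720 regions that reached 20 in all 4 dLGN libraries, called dLGN regions from here on.

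All mice were of C57Bl/6J background, and the labels put 2 libraries in each of 4 groups. The dLGN libraries came from microdissected dLGN of mice aged 32 days, fed PLX5562 chow (PLX chow, given to remove microglia) or a control chow made alongside it, from day 20 until they were killed. The section libraries came from frozen brains of mice lacking Fn14 (Fn14 KO), the receptor for the cytokine TWEAK, and their WT littermates aged 27 days, untreated, and the coronal sections held cortex, hippocampus and also the dLGN. Tissue, age, chow and dissection all differ between the dLGN and section libraries and cannot be told apart, and a site open in a small share of the section's cells may give no peak there. The labels do not say how the Fn14 allele was made, nor whether the 2 libraries of a group came from separate mice, so that any p-value below measures only the spread between these libraries.

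The deposited lists held 248989 to 285771 peaks in the dLGN libraries and 256323 to 299822 in the section libraries. The weakest peak had a −log10 p of 2.0 in 6 of the 8 lists, but of 2.85 in Fn14 KO 1 and 2.05 in Fn14 KO 2, whose lists were close to the authors' limit of 300000 peaks. Without Fn14 KO 1 the rule gave 2557 regions, the most with any 1 library left out. Between 58989 and 69890 regions per dLGN library reached 20, against 34131 to 52830 per section library. The files hold no read counts, so that depth is unknown, and the −log10 p, which grows with depth, is not on one scale across libraries.

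The dLGN is the thalamic relay that receives axons of retinal ganglion cells and sends its own to the visual cortex. In most tissues the sites at gene starts are open in many cell types, whereas accessible sites inside introns and between genes, many of which act as enhancers, differ more between cell types. A peak shows that DNA was accessible in some of the cells, and it names neither the cell type nor the gene that the site acts on. Genes below are the nearest protein-coding genes by position.

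Only 12 of the 1783 regions (0.673%) overlapped the window of 250 bases before to 50 bases after a gene start, against 39.6% of the 22922 regions with a −log10 p of at least 20 in all 8 libraries, called shared regions, and 21.0% of all dLGN regions. Of the section-only regions, found by the mirrored rule (at least 20 in all 4 section libraries, no dLGN peak), 0.652% did, so that regions at gene starts were rare in both sets. The 12 dLGN-only ones lay over 14 windows of 12 genes, most of them long non-coding RNA genes. Of the windows that held the strongest summit, 4 are shown because they carry the few dLGN-only regions seated at a gene start. They are the protein-coding genes Gimap7, a GTPase of the immunity-associated family, and Olfr1386, an olfactory receptor, and the non-coding genes Gm52418 and Gm28703, which had the strongest such regions of their class. The bases are those of RefSeq for build GRCm38.p6 (mm10), on the strand of the gene, and the capitals mark 51 bases around the summit.
Gimap7: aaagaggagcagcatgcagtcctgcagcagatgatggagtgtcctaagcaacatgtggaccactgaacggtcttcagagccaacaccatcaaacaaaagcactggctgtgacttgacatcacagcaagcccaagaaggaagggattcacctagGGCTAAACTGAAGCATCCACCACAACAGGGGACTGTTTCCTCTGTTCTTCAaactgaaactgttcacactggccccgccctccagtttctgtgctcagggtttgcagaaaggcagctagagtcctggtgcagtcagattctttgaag
Olfr1386: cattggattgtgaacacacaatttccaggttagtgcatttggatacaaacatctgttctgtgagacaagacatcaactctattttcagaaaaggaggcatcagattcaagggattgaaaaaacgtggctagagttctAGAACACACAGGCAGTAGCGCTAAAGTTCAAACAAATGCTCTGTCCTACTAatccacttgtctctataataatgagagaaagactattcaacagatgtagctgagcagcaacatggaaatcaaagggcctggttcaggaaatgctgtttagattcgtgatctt
Gm52418: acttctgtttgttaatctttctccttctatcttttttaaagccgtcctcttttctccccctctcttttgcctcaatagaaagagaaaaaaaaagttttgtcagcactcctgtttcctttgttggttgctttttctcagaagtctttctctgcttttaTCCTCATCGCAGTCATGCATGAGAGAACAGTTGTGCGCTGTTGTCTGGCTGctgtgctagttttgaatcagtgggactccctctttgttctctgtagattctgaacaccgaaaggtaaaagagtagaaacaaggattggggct
Gm28703: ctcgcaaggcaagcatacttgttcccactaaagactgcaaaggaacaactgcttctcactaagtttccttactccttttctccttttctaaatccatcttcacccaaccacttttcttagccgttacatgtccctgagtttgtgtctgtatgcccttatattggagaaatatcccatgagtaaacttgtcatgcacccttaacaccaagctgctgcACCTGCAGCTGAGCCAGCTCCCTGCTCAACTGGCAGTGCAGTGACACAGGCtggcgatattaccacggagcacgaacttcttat
These windows lie at chr6:48718371-48718670 on the plus strand (Gimap7), chr11:49469804-49470103 on the plus strand (Olfr1386), chrX:57708505-57708804 on the plus strand (Gm52418) and chr9:90828807-90829106 on the minus strand (Gm28703). The summit was 72 bases before the start of Gimap7, 88 before that of Olfr1386, 68 before that of Gm52418 and 9 before that of Gm28703. At Gm28703 the −log10 p was 35.2 and 23.4 in PLX chow dLGN and 27.1 and 32.4 in control chow dLGN.

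At the Gimap7 start the −log10 p was 52.2 and 38.1 in PLX chow dLGN and 33.0 and 52.9 in control chow dLGN. At the Olfr1386 start it was 35.2 and 20.9 in PLX chow dLGN and 29.6 and 35.9 in control chow dLGN. At Gm52418 it was 58.7 and 27.8 in PLX chow dLGN and 32.2 and 36.8 in control chow dLGN. The values of the chows overlapped at all 3. These windows were poor in G and C: the 14 had a median GC content of 44.3% (39% to 53%) and 4 CpG dinucleotides, against 62.0% and 22 over the 12188 windows under shared regions. Over all 32851 windows the median was 52.7% with 7 CpG dinucleotides. Of the 14, 12 were under 50% GC, against 9.48% of the windows under shared regions and 39.3% of all windows.

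Both strands of the 14 windows were searched for 20 short motifs. The AP-1 motif TGANTCA was found in 5 of 14, against 3.94% of windows under shared regions and 7.81% of all 32851 windows. Of the 5, 2 are windows of Gm30915 that differ by 1 base in position, and the others belong to Gm13262, Gm52418 and Gm46397. The E-box CAGCTG was in 4 windows (against 14.6% of windows under shared regions and 16.3% of all windows) and the E-box CAGATG in 3 (against 10.3% and 17.2%). The EBF motif TCCCNNGGG was in 3 (against 7.83% and 6.56%), of which 2 are the same pair of Gm30915 windows. The SP/KLF motif GGGGCGGGG was in 1 (against 22.3% and 11.4%). The CRE motif TGACGTCA was in 1 window (against 1.79% of all windows), as was the TCF/LEF motif ATCAAAG (against 3.73%). The MEF2 motif, searched as CTATTTATA and as CTAAAAATA, was in 1 window (against 0.947%), and so was the FOX motif TGTTTAC (against 3.65%). The other 11 motifs were in no window. For factors of neural development these were the homeobox letters TAATTA, the NFI site TTGGCA, the SOX core ACAATGG, the POU octamer ATGCAAAT, the RFX site GTTGCCATG and the ROR site ANTAGGTCA. For factors of many cell types they were the CTCF core CCANNAGGG, the ETS site CCGGAAGT, the NRF1 site GCGCATGCG and the TATA box TATAAA, and for the myeloid factor PU.1 the site GAGGAAGT. Over all windows these 11 motifs were found in 0.661% (ROR) to 14.1% (NFI), so that 0 in 14 windows does not show an absence. The MEF2 form CTATTTATA holds the TATA box letters on its other strand. With 14 windows a match is a description of the letters and not of a factor. Some windows do not hold the summit, among them that of Gm13262 and the Gm46397 window with the CRE, MEF2 and FOX matches. Letters in such a window may lie outside the region.

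A region 562 bp from the hairpin of Mir9-2, chosen for mention after its values were seen, lay at chr13:83737631-83738252. Mir9-2 encodes miR-9, a microRNA abundant in the developing and adult brain. Its 2 mature strands are shown with the seed (bases 2 to 8) in capitals, and the seeds differ.
mmu-miR-9-5p: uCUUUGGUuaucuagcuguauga
mmu-miR-9-3p: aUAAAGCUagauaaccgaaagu
The −log10 p of the region was 21.0 and 26.1 in PLX chow dLGN and 25.6 and 21.2 in control chow dLGN, so that all 4 libraries stood just above the minimum of 20.

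The strongest dLGN-only regions were distal. Ranked by the lowest −log10 p over the 4 dLGN libraries, 9 of the first 12 lay over 100 kb from any protein-coding gene. The first lay 292 kb from Trhde, which encodes an enzyme that degrades thyrotropin-releasing hormone, at chr10:114106709-114107258, with a −log10 p of 218 and 156 in PLX chow dLGN and 184 and 173 in control chow dLGN. The second lay 398 kb from Mdfic, a regulator of transcription factors, at chr6:16200149-16200573 (141 and 114 in PLX chow dLGN, 141 and 113 in control chow dLGN). The third lay 146 kb from Mreg, which encodes melanoregulin, at chr1:72012617-72013220 (157 and 139 in PLX chow dLGN, 119 and 110 in control chow dLGN). The chow groups overlapped at the Trhde and Mdfic regions, and at the Mreg region both PLX chow libraries were above both control chow libraries.

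At these sites the nearest section peak was not always far. It was 11776 bp away from the Trhde region and 11368 bp from the Mdfic region, but 736 bp from the Mreg region. The summits of the 4 dLGN libraries fell within 11, 24 and 5 bp of each other at the 3 sites. The authors' fold enrichment over the local background was 20.8 and 18.5 in PLX chow dLGN and 18.5 and 18.02 in control chow dLGN at the Trhde region.

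Classical cadherins, which join cells by calcium-dependent adhesion, were the nearest genes of 2 others. The region 574 kb from Cdh6 (chr15:13750341-13750863) had 129 and 105 in PLX chow dLGN and 105 and 137 in control chow dLGN. The region 1260 kb from Cdh8 (chr8:100677341-100678028) had 152 and 95.1 in PLX chow dLGN and 148 and 111 in control chow dLGN. The chows overlapped at both.

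The other distal regions among the 12 lay near Ascc3, a DNA helicase, Ncam2, a neural cell adhesion molecule, Irak1bp1, a binding partner of an interleukin receptor kinase, and Stim2, a calcium sensor of the endoplasmic reticulum. The Irak1bp1 region (chr9:82618023-82618946) varied most of these, with 198 and 93.5 in PLX chow dLGN and 218 and 141 in control chow dLGN. The Ncam2 region (chr16:80951130-80951855) had 93.9 and 115 in PLX chow dLGN and 170 and 110 in control chow dLGN. At both sites the chows overlapped and control chow 1 was the highest library. The Ascc3 region (chr10:50478781-50479565) had 172 and 102 in PLX chow dLGN and 152 and 130 in control chow dLGN, and its nearest section peak was 78575 bp away. The Stim2 region (chr5:54491509-54492205) had 152 and 114 in PLX chow dLGN and 133 and 92.6 in control chow dLGN.

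**Figure D1:**
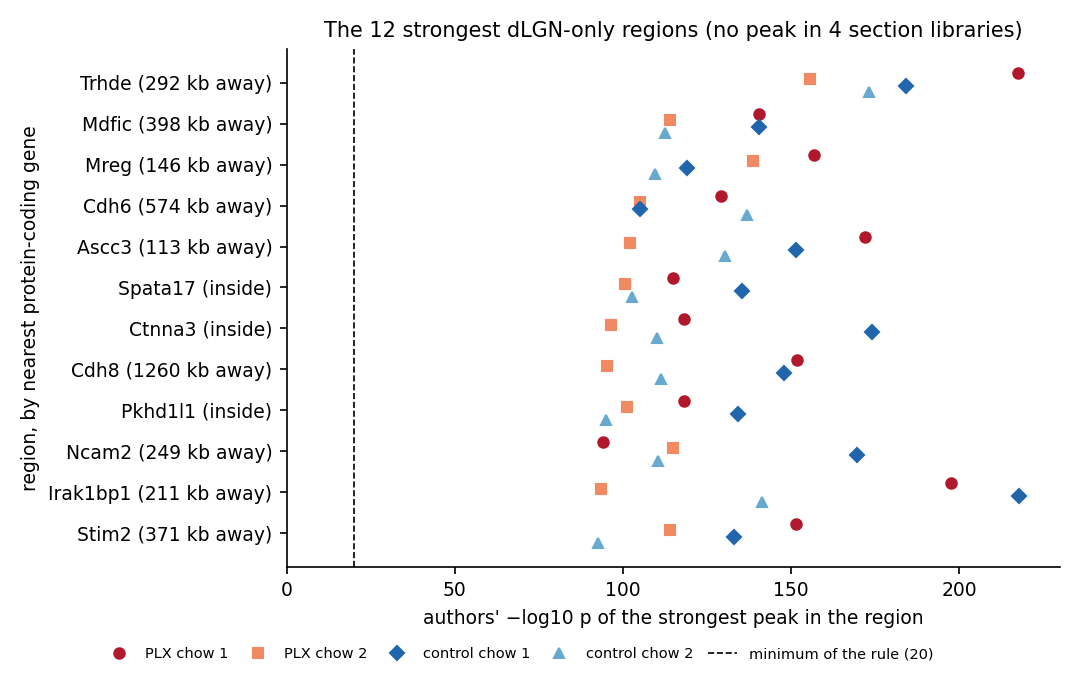
The authors' −log10 p of the strongest peak (x axis) in each of the 4 dLGN libraries for the 12 dLGN-only regions with the highest lowest value (y axis, by nearest protein-coding gene). Every point lies at 92.6 or above, far from the minimum of 20 drawn as a dashed line, and the 2 PLX chow libraries overlap the 2 control chow libraries at 11 of the 12.

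Inside genes, the strongest regions lay in Spata17, Ctnna3 and Pkhd1l1. Spata17 is named for its expression in sperm development. Its region (chr1:187043008-187043837) had 115 and 101 in PLX chow dLGN and 135 and 103 in control chow dLGN, and 3 of the 8 dLGN regions assigned to the gene were dLGN-only. Ctnna3 encodes the adhesion protein alpha-T-catenin and spans 1574 kb. It held 3 dLGN-only regions, of which the strongest (chr10:64820173-64820605) had 118 and 96.4 in PLX chow dLGN and 174 and 110 in control chow dLGN. The next, at chr10:64473094-64473776, had 86.1 and 101 in PLX chow dLGN and 111 and 103 in control chow dLGN, and its folds overlapped between the chows. The gene also had 4 section-only regions.

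Pkhd1l1 encodes a large membrane protein of the hair-cell surface. Its region (chr15:44493476-44493941) had 118 and 101 in PLX chow dLGN and 134 and 94.9 in control chow dLGN. Palladin, encoded by Palld, organizes actin, and its region (chr8:61767387-61767953) had 173 and 115 in PLX chow dLGN and 124 and 86.9 in control chow dLGN. Dkk2 encodes a secreted modulator of Wnt signalling (chr3:132144044-132144554), with 129 and 90.7 in PLX chow dLGN and 106 and 84.3 in control chow dLGN. At all 3 the chow groups overlapped.

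Pcsk5 encodes a protease that cleaves proproteins, and its region (chr19:17615145-17615696) had 106 and 100 in PLX chow dLGN and 83.2 and 108 in control chow dLGN. Nfia, a transcription factor needed for glial development, had 3 dLGN-only regions among its 23 dLGN regions. The strongest (chr4:97632470-97632962) had 129 and 83.0 in PLX chow dLGN and 98.3 and 91.6 in control chow dLGN. The other 2 were weaker, with lowest values of 26.5 and 21.0.

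Across all members the values were much lower than at these sites. The lowest −log10 p of a region over the 4 dLGN libraries had a median of 28.0 and quartiles of 23.4 and 38.4. It was 50 or more in 220 regions (12.3%) and 100 or more in 6. The median over members was 48.1 in PLX chow 1, 33.1 in PLX chow 2, 43.1 in control chow 1 and 36.8 in control chow 2. PLX chow 2 was the lowest of the 4 in 867 regions (48.6%), and it most often set whether a region passed.

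The minimum of 20 divides a continuous range. Just inside it lay a region 21.6 kb from Fmn2 (with 50.1 and 28.6 in PLX chow dLGN and 44.5 and 20.02 in control chow dLGN) and one in Foxp2 (34.3 and 31.5 in PLX chow dLGN, 20.1 and 39.5 in control chow dLGN). Just outside lay regions 77.3 kb from Pthlh (lowest value 19.9, with 23.8 and 43.3 in PLX chow dLGN and 19.9 and 42.0 in control chow dLGN), inside Napepld and 4.83 kb from Fam107a. At Fmn2 and Pthlh alike, other libraries of the same region reached over 40.

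Whether a strong dLGN region lacked section peaks depended on its strength. Of the 11957 dLGN regions with a lowest −log10 p of 20 to 30, 998 (8.35%) had no section peak. The count was 565 of 12224 (4.62%) from 30 to 50, 214 of 12014 (1.78%) from 50 to 100, and 6 of 11525 (0.0521%) at 100 or more. Over all classes 39146 of the 47720 (82.0%) had a peak in all 4 section libraries. Between these ends, 1640 had a section peak in 1 library, 2271 in 2 and 2880 in 3. Since the rule used these values, the decline with strength is a description.

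**Figure D2:**
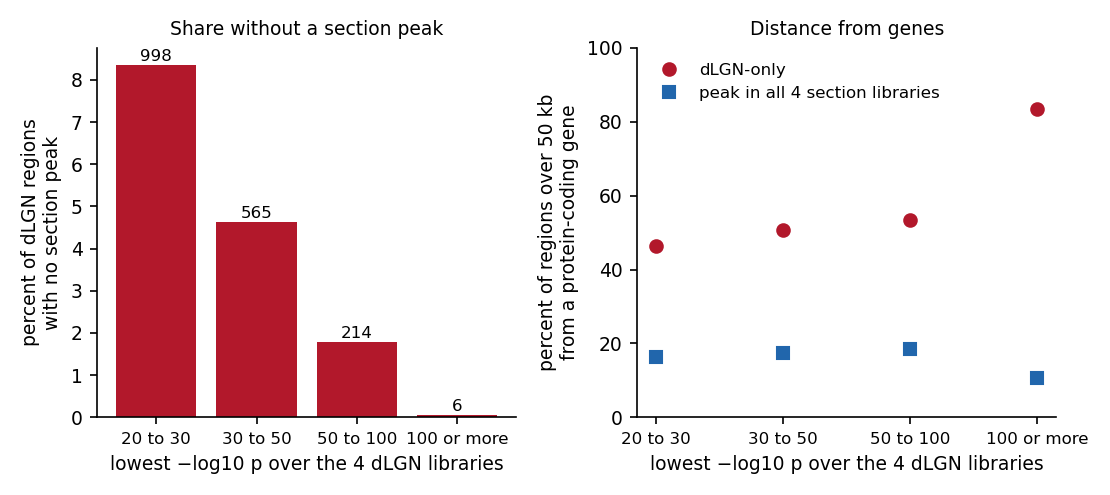
Left, the percent of dLGN regions with no section peak (y axis, numbers of regions above the bars) by the lowest −log10 p over the 4 dLGN libraries (x axis), falling to 0.0521% in the strongest class. Right, the percent of regions over 50 kb from a protein-coding gene in the same classes, which is higher for dLGN-only regions than for dLGN regions with a peak in all 4 section libraries in every class.

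The position of the regions relative to genes was not used by the rule. The centre lay inside a protein-coding gene for 558 of 1783 (31.3%, 95% exact Clopper-Pearson interval 29.1% to 33.5%, for counting error only). It lay outside but within 50 kb for 356 (20.0%) and beyond 50 kb for 869 (48.7%). Of the shared regions 62.5% lay inside a gene and 11.4% beyond 50 kb, and of all dLGN regions 56.5% and 19.7%. The section-only regions, 1073 in number, lay close to the dLGN-only ones, with 37.0% inside and 43.8% beyond 50 kb. A distal position was thus found in both sets selected for absence from the other tissue.

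Regions far out were common. 180 dLGN-only regions (10.1%) lay over 500 kb from any protein-coding gene, against 8.11% of section-only, 1.05% of shared and 2.45% of all dLGN regions. The farthest lay 1866 kb from Lrrc4c, which encodes a synaptic adhesion protein, at chr2:99497597-99498166, with 22.7 and 26.9 in PLX chow dLGN and 38.4 and 23.3 in control chow dLGN. Those outside genes had a median distance of 125 kb, against 119 kb for section-only and 16.8 kb for shared regions. The share beyond 50 kb was 46.5%, 50.6%, 53.3% and 83.3% in the 4 classes of strength from low to high. Among dLGN regions of the same classes of strength with a peak in all 4 section libraries it was 16.3%, 17.5%, 18.5% and 10.8%, and the strongest class held 6 dLGN-only regions.

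Only 18 regions (1.01%) lay within 1 kb of the end of a protein-coding gene, against 0.932% of section-only, 40.5% of shared and 21.8% of all dLGN regions. The strongest was at Foxp2, a transcription factor of thalamic and other projection neurons (chr6:15441449-15442192), with 74.3 and 44.1 in PLX chow dLGN and 68.0 and 49.0 in control chow dLGN. Its nearest section peak was 26024 bp away. The next were at Ces1d, a carboxylesterase (66.8 and 38.1 in PLX chow dLGN, 51.5 and 40.5 in control chow dLGN), at Ssu2 (76.7 and 43.4 in PLX chow dLGN, 36.2 and 42.5 in control chow dLGN) and at Gimap7, given above. In Ssu2 both PLX chow values were above both control chow values, and at the other 3 genes the chows overlapped.

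**Figure D3:**
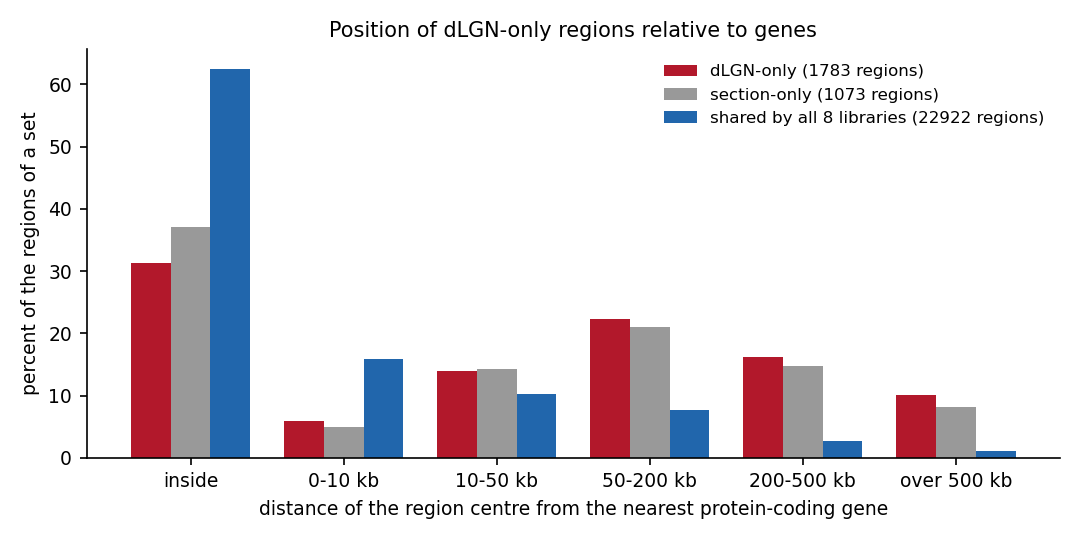
The percent of regions of a set (y axis) by the distance of the region centre from the nearest protein-coding gene (x axis) for 1783 dLGN-only, 1073 section-only and 22922 shared regions. The bars of dLGN-only and section-only regions run together, with 31.3% and 37.0% inside genes, and those of shared regions are higher inside genes and within 10 kb.

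The genes that held dLGN-only regions were long. The median length of the host gene was 233 kb for the 558 regions inside genes, against 223 kb for section-only, 52.6 kb for shared and 94.0 kb for all dLGN regions. 130 (23.3%) lay in genes over 500 kb, against 25.9% of section-only and 6.32% of shared regions, and 59 (10.6%) in genes over 1000 kb, against 11.6% and 2.12%. Another 171 regions (9.59%) lay only inside non-coding genes or pseudogenes, 148 of them in long non-coding RNA genes.

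The regions were narrow and simple in shape. Their median width was 551 bp (quartiles 438 and 683 bp), against 710 bp for section-only and 1066 bp for shared regions. In 60.9% every dLGN library had a single summit, against 17.7% of shared and 31.2% of all dLGN regions. In 36.6% of section-only regions every section library had a single summit. The summits of the 4 libraries lay within 50 bp of each other in 85.7%, and their median range was 24 bp, against 15 bp for shared regions. The widest were a region of 1448 bp in Slc9c1, a sodium and proton exchanger of sperm, one of 1422 bp near Cyld, a deubiquitinase, and one of 1403 bp near AI429214. Within the class from 50 to 100 the median was 607.5 bp for dLGN-only regions against 886 bp for those in all 4 section libraries.

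A total of 914 regions had a protein-coding gene within 50 kb, in all 757 genes, of which 644 had 1 region and 31 had 3 or more. Of the 757 genes, 98 (12.9%) also had a section-only region. Morc1, an ATPase that silences transposons in the mouse male germ line, had 5 dLGN-only regions among only 9 dLGN regions, and no section-only region. The strongest (chr16:48600510-48600993) had 114 and 63.2 in PLX chow dLGN and 112 and 68.8 in control chow dLGN. The other 4 had lowest values of 24.9 to 35.8.

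Gpc5 and Gpc6 each had 5, among 24 and 28 dLGN regions. They encode glypicans, heparan sulfate proteoglycans of the cell surface, and lie side by side on chromosome 14 with lengths of 1433 and 1055 kb. The strongest Gpc5 region (chr14:115676528-115677059) had 54.4 and 53.5 in PLX chow dLGN and 55.9 and 82.5 in control chow dLGN. The strongest Gpc6 region (chr14:117806105-117806697) had 62.6 and 44.3 in PLX chow dLGN and 43.9 and 36.8 in control chow dLGN. The Gpc5 region was highest in control chow 2 and the Gpc6 region in PLX chow 1.

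Tenm3 encodes a teneurin, an adhesion protein that in mice guides retinal axons to their targets in the dLGN. It held 5 dLGN-only regions among 35. The strongest (chr8:48856202-48856852) had 61.9 and 37.2 in PLX chow dLGN and 61.7 and 48.0 in control chow dLGN, and the others had lowest values of 20.1 to 28.8. Lrmda, a gene linked to melanocyte differentiation, had 4 among 17, the strongest at chr14:22399803-22400420 with 108 and 81.8 in PLX chow dLGN and 82.1 and 70.4 in control chow dLGN. Tenm3, Gpc5 and Gpc6 each had 2 section-only regions as well, and Lrmda had none.

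The median gap between neighbouring dLGN-only regions was 625 kb, 33 of 1763 gaps were under 10 kb, and the smallest was 206 bp. For the section-only regions, which were fewer, the median gap was 1000 kb and 15 of 1053 gaps were under 10 kb. Whether the regions lay closer together than an even scatter would place them was not tested. Of 1082 windows of 1 Mb that held a member, 646 held 1 and 26 held 5 or more. The densest, with 7 each, were 48 to 49 Mb of chromosome 16, around Morc1, Dppa2 and Trat1, and 143 to 144 Mb of chromosome 1, where the nearest gene is Cdc73, which encodes parafibromin. In the chromosome 16 window 7 of 15 dLGN regions were dLGN-only and no region was section-only. In the chromosome 1 window they were 7 of 31, at 36.7 to 573 kb from Cdc73, and the strongest (chr1:143566280-143566928) had 90.8 and 80.7 in PLX chow dLGN and 52.6 and 45.1 in control chow dLGN.

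Absence from the sections did not mean absence of peaks nearby. The nearest section peak lay at a median of 3929 bp from a dLGN-only region, and within 500 bp of 149 regions. 454 regions (25.5%) had none within 10 kb, and the largest distance was 314711 bp.

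By chromosome, the share of dLGN regions that were dLGN-only was highest on chromosome 1, with 215 of 4056 (5.30%), and, Y apart, lowest on chromosome 7, with 50 of 2274 (2.20%). Chromosomes 8, 16 and 2 followed chromosome 1 with 4.61%, 4.57% and 4.56%, and on X the share was 2.74%. Chromosome Y had 6 dLGN regions and no dLGN-only one. Chromosome 7 also had only 2 section-only regions among its 1337 section regions, against 118 of 2155 on chromosome 1.

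**Figure D4:**
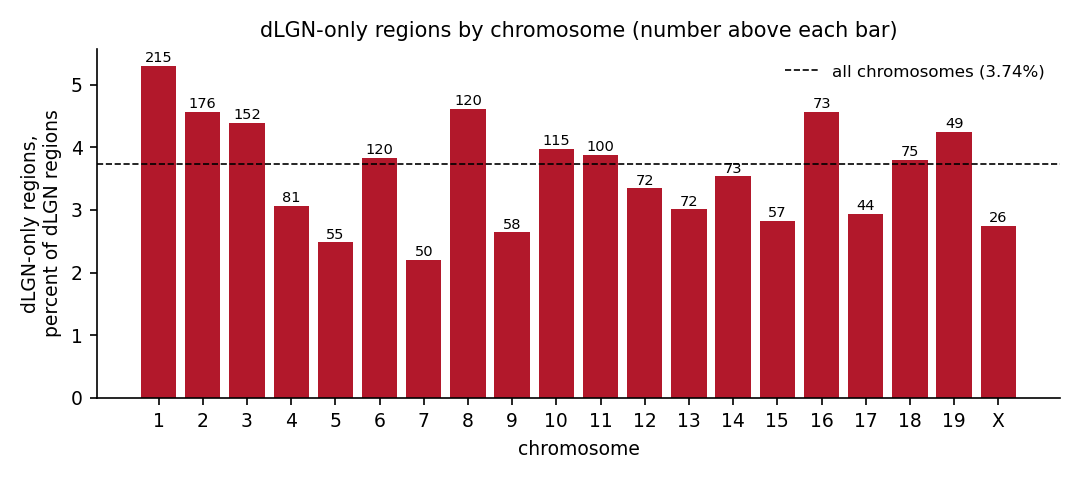
dLGN-only regions as a percent of all dLGN regions (y axis) on each chromosome except Y (x axis), with the number of dLGN-only regions above each bar and the value over all chromosomes, 3.74%, as a dashed line. Chromosome 1 stands highest at 5.30% and chromosome 7 lowest at 2.20%.

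Genes that mark cell types were counted next, with regions assigned to the nearest protein-coding gene within 50 kb, in 14 lists. The 3.74% set beside them covers dLGN regions at any distance and is not a like measure. Inside protein-coding genes 558 of 26981 dLGN regions were dLGN-only, and outside but within 50 kb 356 of 11359. Beyond 50 kb 869 of 9380 were, so that the share within 50 kb was lower than 3.74%. Most thalamic genes had dLGN regions but no dLGN-only one. Tcf7l2 and Rora, transcription factors of thalamic neurons, had 4 dLGN regions each, Lef1 had 3, and Prkcd and Slc17a6 (the vesicular glutamate transporter of thalamic relay cells) had 2 each, none of them dLGN-only. Gbx2 had no dLGN region. Each of these regions thus had a peak in at least 1 section library, and the sections held the dLGN too. Over the list of 25 thalamic genes, 3 of 113 dLGN regions (2.65%) were dLGN-only, beside 3.74% of all dLGN regions at any distance. These were 2 in Foxp2 and 1 in Zfhx3, a transcription factor of thalamic and hypothalamic neurons (33.1 and 24.4 in PLX chow dLGN, 20.9 and 38.3 in control chow dLGN). The label of these regions therefore rests on the rule and not on the listed thalamic genes, as counted within 50 kb. Regions farther out were not counted, among them a dLGN-only region 62051 bp from the listed gene Lhx9, with a lowest −log10 p of 56.0.

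Genes of other neuron types had such regions too. The cortical and hippocampal list had 5 of 106 (4.72%), at Zbtb20, Bhlhe22, C1ql2 and, with 2, Foxp1. The strongest of these lay 31.7 kb from C1ql2, which encodes a synaptic C1q-like protein (chr1:120374492-120375267), with 72.8 and 88.7 in PLX chow dLGN and 78.6 and 73.7 in control chow dLGN. The region in Zbtb20, a transcription factor of hippocampal neurons and astrocytes, had 41.1 and 42.6 in PLX chow dLGN and 57.0 and 45.1 in control chow dLGN, and its folds overlapped between the chows. The defining genes Neurod6 (5 dLGN regions) and Tbr1 (2) had no dLGN-only region.

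The inhibitory neuron list had 6 of 81 (7.41%), at Npy, Gata3, Sox6, Maf and, with 2, Reln. Gata3, a transcription factor of midbrain-derived inhibitory neurons, had the strongest (chr2:9853022-9853772), 3.68 kb away, with 80.0 and 44.7 in PLX chow dLGN and 85.0 and 72.1 in control chow dLGN. The region 519 bp from the neuropeptide gene Npy (chr6:49829752-49830301) had 32.5 and 30.1 in PLX chow dLGN and 30.1 and 44.3 in control chow dLGN. Its nearest section peak was 455 bp away. The defining genes Gad1 (2 dLGN regions), Gad2 (4) and Slc32a1 (1) had no dLGN-only region. Erbb4 (12) and Nxph1 (13) had none either. The Sox6 region is counted again among the oligodendrocyte precursor genes below. The counts of 5 cortical and hippocampal and 6 inhibitory regions stand beside 3.74% of all dLGN regions at any distance, and no test was made on them.

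Glial and vascular genes are set beside the same 3.74% of all dLGN regions at any distance. Astrocyte genes had 4 of 117 (3.42%), 3 in Nfia and 1 in Slc4a4, a bicarbonate transporter (49.6 and 39.6 in PLX chow dLGN, 47.7 and 51.1 in control chow dLGN). Oligodendrocyte precursor genes had 3 of 92 (3.26%), in Lhfpl3 and Sox6 and near Tnr, the matrix protein tenascin-R. The Tnr region, 22.0 kb away (chr1:159953389-159953983), was among the strongest near a listed gene, with 134 and 98.9 in PLX chow dLGN and 175 and 76.9 in control chow dLGN. The region in Lhfpl3 had 62.4 and 57.7 in PLX chow dLGN and 62.0 and 45.4 in control chow dLGN. Mature oligodendrocyte genes had 0 of 79 and endothelial and mural genes 1 of 45 (2.22%), in Erg, an endothelial transcription factor.

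The microglial list had 3 of 36 (8.33%, beside 3.74% of all dLGN regions at any distance), and all 3 were at 1 gene, Ptprc, which encodes the leukocyte phosphatase CD45. The strongest (chr1:138131728-138132292) had 38.1 and 29.3 in PLX chow dLGN and 47.4 and 32.8 in control chow dLGN, and the chows overlapped. The next had 56.5 and 24.3 in PLX chow dLGN and 27.1 and 31.5 in control chow dLGN. The last had 41.0 and 24.3 in PLX chow dLGN and 49.95 and 27.3 in control chow dLGN. P2ry12 (3 dLGN regions), Csf1r (1) and Cx3cr1 (0) had no dLGN-only region. In bulk tissue fewer cells of a type and less accessible DNA per cell cannot be told apart.

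Glutamate receptor and channel genes had 7 of 123 (5.69%), with 3 in the kainate receptor gene Grik1, 2 at the potassium channel gene Kcnh7 and 1 each at Gria1, an AMPA receptor gene, and Kcna2, a potassium channel gene. The strongest was in Kcnh7 (chr2:63131630-63131937), with 37.9 and 43.5 in PLX chow dLGN and 34.9 and 36.7 in control chow dLGN, higher in both PLX chow libraries. The Gria1 region, 23.3 kb away, had 56.5 and 31.5 in PLX chow dLGN and 37.5 and 31.5 in control chow dLGN. Axon guidance and adhesion genes had 14 of 436 (3.21%), led by Ctnna3 and by Slit3, a guidance ligand (77.1 and 45.0 in PLX chow dLGN, 48.6 and 75.7 in control chow dLGN). Activity-regulated genes had 0 of 60, housekeeping genes 0 of 26 and genes of the retina and eye field 0 of 19. No dLGN region was assigned to the genes of Fn14 and its ligand TWEAK, that is, none had one of them as its nearest gene within 50 kb.

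Gene families were examined by symbol at any distance, after the values had been seen, and their shares stand beside 3.74% of all dLGN regions. That share differed with position: 558 of 26981 dLGN regions inside protein-coding genes were dLGN-only, and 869 of 9380 beyond 50 kb. The families were not matched for distance, and the part of distance in their shares was not tested. Glypican genes were nearest to 16 dLGN-only regions among 81 dLGN regions (19.8%), contactin-associated protein genes to 16 of 108 (14.8%) and teneurin genes to 19 of 167 (11.4%). Vomeronasal receptor genes were nearest to 7 of 33 (21.2%) and olfactory receptor genes to 13 of 107 (12.1%). Cadherins had 21 of 306 (6.86%) and protocadherins 15 of 159 (9.43%). The synaptic adhesion genes named Slitrk had 7 of 65 (10.8%) and the potassium channel genes named Kcn 29 of 440 (6.59%). Zinc finger genes named Zfp had 17 of 753 (2.26%), the lowest share of these families. Contactin-associated protein genes made up 0.897% of nearest genes among dLGN-only regions, against 1.03% among section-only regions. Cadherin genes made up 1.18%, against 1.77%, and protocadherin genes 0.841%, against 1.12%. The share was higher among dLGN-only regions for glypican (0.897% against 0.373%) and teneurin genes (1.07% against 0.280%). It was also higher for olfactory (0.729%) and vomeronasal receptor genes (0.393%), against 0.0932%, or 1 section-only region, each. Slitrk (0.393% against 0.373%), Kcn (1.63% against 1.40%) and Zfp genes (0.953% against 0.839%) differed less. Among the regions beyond 50 kb, Cdc73 was nearest to 8, and Stim2, Cntn3, Got2 and Brinp3 to 7 each.

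The last comparison asked whether microglia-removing chow went with a different signal at these regions. The rule did not use the difference between the chows, but it asked for a −log10 p of at least 20 in all 4 dLGN libraries. A region without such a peak under either chow could thus not be a member, which limits the folds compared here. Nor need the minimum be the same fold in each library. In 1 Tenm3 region a −log10 p of 20.1 went with a fold of 5.59 in PLX chow 2, and 20.2 with 4.99 in control chow 2. The authors' fold enrichment is not normalized between libraries, so each library was read against its own shared regions. The median fold at dLGN-only regions was 8.84 and 7.17 in PLX chow dLGN and 7.38 and 6.83 in control chow dLGN. At shared regions it was 11.5 and 12.1 in PLX chow dLGN and 12.2 and 11.3 in control chow dLGN. The ratio of the first to the second was 0.767 and 0.595 in PLX chow dLGN and 0.603 and 0.605 in control chow dLGN.

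PLX chow 1 stood apart from the other 3 libraries, which lay together. On the log2 scale, the median at dLGN-only regions minus that at shared regions averaged −0.57 ± 0.26 in PLX chow dLGN and −0.73 ± 0.0028 in control chow dLGN (SD, n = 2 each). The difference of 0.16 was within the spread between libraries (exact two-sided permutation p = 1, where 0.33 is the smallest p that 2 libraries against 2 allow). Without PLX chow 1 it was −0.022, and without PLX chow 2 it was 0.35. PLX chow 1 was also the highest at the dLGN regions that were neither shared nor dLGN-only, with −0.47, against −0.61 in PLX chow 2 and −0.60 and −0.61 in the control chow libraries.

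Region by region, the fold relative to shared regions was higher in both PLX chow than in both control chow libraries for 529 dLGN-only regions (29.7%), beside 19.2% of all dLGN regions. It was lower in both for 72 (4.04%), beside 11.5% of all dLGN regions. This rested on PLX chow 1, which was the highest of the 4 libraries in 1236 regions (69.3%), against 41.2% of all dLGN regions. With PLX chow 1 left out, PLX chow 2 was above both control chow libraries in 575 (32.2%, against 31.6% of all dLGN regions) and below both in 571 (32.02%, against 34.6%). No region was tested singly, since each holds 2 libraries per chow.

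**Figure D5:**
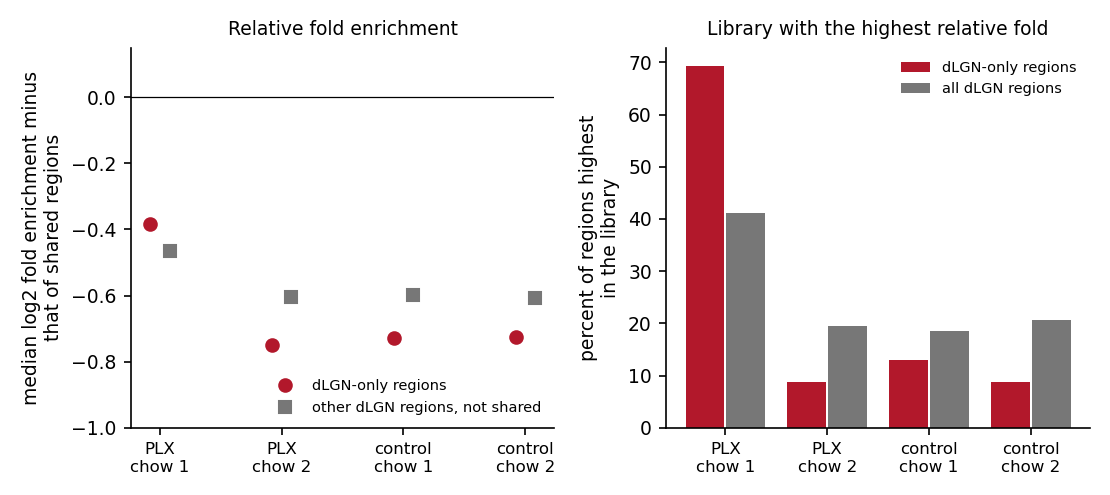
Left, the median log2 fold enrichment minus that of shared regions (y axis) in each dLGN library (x axis), for dLGN-only regions and for other dLGN regions that are not shared. Right, the percent of regions (y axis) in which each library had the highest relative fold. PLX chow 1 stands above the other 3 libraries in both, at −0.38 and 69.3% for dLGN-only regions.

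The libraries ordered the dLGN-only regions less alike than the shared regions. The rank correlation of the fold between 2 dLGN libraries was 0.609 to 0.711 over the 1783 dLGN-only regions and 0.924 to 0.942 over the 22922 shared regions. These are correlations across regions of the same libraries, the members cover a narrower range of values, and regions are not replicates. The highest −log10 p of a region was a median of 1.79 times its lowest, against 1.61 times over all dLGN regions, and over 3 times in 63 (3.53%), against 1.36%.

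One measure outside the rule could be compared between the tissues over libraries. After the dLGN-only and section-only regions were left out, 56.4 ± 0.522% of the 50000 strongest regions of a dLGN library lay inside a protein-coding gene, and 57.0 ± 1.19% of those of a section library (SD, n = 4 each). The difference of −0.64 percentage points was within the spread (exact two-sided permutation p = 0.371). With the 25000 or the 100000 strongest regions it was −1.80 and −1.56 points (exact two-sided permutation p = 0.0286 each, the smallest possible). The share beyond 50 kb, added after the data had been seen, was 19.0 ± 0.808% in dLGN and 16.7 ± 1.44% in section libraries (SD, n = 4 each), a difference of 2.24 points (exact two-sided permutation p = 0.0286, the smallest possible, adjusted p = 0.0429 over 3 such measures). Leaving out PLX chow 1, PLX chow 2, control chow 1, control chow 2 or Fn14 KO 1 ended the call (exact permutation p = 0.0571 each). All 4 dLGN libraries were above all 4 section libraries, by 18.10% against 18.04% at the closest. The share over promoter windows, added likewise, was 20.4 ± 0.416% in dLGN and 21.2 ± 0.271% in section libraries, lower in all 4 dLGN libraries (exact two-sided permutation p = 0.0286, adjusted p = 0.0429), and the call ended without PLX chow 1 (exact permutation p = 0.0571). The weakest of the 50000 regions had a −log10 p of 25.2 to 33.0 in dLGN and 13.4 to 21.5 in section libraries, and the part of this gap in the differences was not tested.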

How the data were processed

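ATAC-seq peak lists of 8 mouse brain libraries were analysed, 4 from dLGN and 4 from sections, grouped by the labels. Per the deposited pipeline instructions, the authors ran the ENCODE pipeline for ATAC-seq on read pairs against build mm10 and called peaks in each sample at a p threshold of 0.01. The names of the deposited lists record that reads were trimmed, that duplicate and mitochondrial ones were dropped, a Tn5 step, at most 300000 peaks and a last filter. The submitters' processing notes name deepTools 3.5.0 with no step. Which aligner and peak caller were run is not given in the sources used here. Each deposited list gives the authors' fold enrichment over local background (a ratio), the p-value and q-value of each peak as −log10, and a score. In every list the deposited score is 10 times its −log10 p, capped, and was not used further.

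Peaks that overlapped by 1 bp or more in any library were merged into regions, each with the highest −log10 p per library. Since the presence and −log10 p of peaks chose the members, these values carry no test. Section-only regions follow the mirrored rule, and shared regions reached 20 in all 8 libraries. Genes (21887 protein-coding), promoter windows and microRNAs came from RefSeq tables of assembly GRCm38.p6, the mm10 build, in which a gene end is either end of the gene, without strand. A region belongs to the protein-coding gene nearest its centre, within 50 kb unless stated. All 294 entries of 14 gene lists matched by symbol. Members and lists were chosen with earlier results of these data known. Named regions were the 12 strongest, the 8 strongest inside genes, the 4 strongest within 1 kb of a gene end, those of the 5 genes with most members, up to 2 genes per list with the strongest member, 3 on each side of the minimum and the 3 widest, some of which are not reported here. Regions at promoter windows and microRNAs, gene families, dense windows and the farthest region were chosen after their values were seen. The exact permutation tests are two-sided over libraries. Python 3.11.15, numpy 2.4.6, pandas 2.3.3 and scipy 1.17.1 were used, and the scripts were tested on simulated data. The main tests did not pair libraries by replicate number. The differences between libraries 1 and 2 of the chows correlated with r = −0.04 over 47720 dLGN regions, which cannot exclude pairing. The same was not computed for the section libraries. Depth is unknown, and intervals cover counting error only. Base composition, repeats and motifs around summits outside promoter windows were not analysed here.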

Additional observations from a re-analysis of the deposited data

Results flagged for a closer look

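The values of 15 sets of 4 libraries were screened for a library far from the other 3, and 3 sets held one. A screen of this kind picks about 1 in 20 sets by chance. All 3 concerned PLX chow 1. Its median log2 fold enrichment at dLGN-only regions minus that at shared regions was −0.38, against −0.75 in PLX chow 2 and −0.73 in both control chow libraries. The same value over the other dLGN regions that are not shared was −0.47, against −0.61 in PLX chow 2 and −0.60 and −0.61 in the control chow libraries. PLX chow 1 also had the highest relative fold in 69.3% of dLGN-only regions, against 8.81% for PLX chow 2 and 13.1% and 8.81% for the control chow libraries. The 3 values come from the same fold enrichments and are not independent. Its list was the shortest of the 8, with 248989 peaks, and the part of list length or depth in these values was not tested.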

How the results depend on the processing

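The number of dLGN-only regions followed the thresholds: it was 5239 with a minimum of 10, 785 with 30, 220 with 50, and 3957 from the control chow and Fn14 WT libraries alone. It was 1634 when section peaks within 500 bp also counted, 1985 with only section peaks of a −log10 q of 1.3 or more, 1782 with adjoining peaks merged, 1962 with peaks of 200 bp, 2093 with lists of equal length, and 1867 to 2557 with 1 library left out. The share inside protein-coding genes was 34.4% with a minimum of 10, 26.8% with 50, 37.1% from the control chow and Fn14 WT libraries, 40.9% with all annotated genes, and, in classes added after seeing the data, 27.1% from 50 to 100 and 16.7% of the 6 regions at 100 or more. With 1 library left out it was 31.4% to 35.0%, the highest without Fn14 KO 1. It stayed under the 62.5% of shared regions in each. The PLX chow minus control chow difference of 0.16 turned to −0.022 without PLX chow 1, with a range of −0.022 to 0.35 over the libraries left out, and was 0.16 with the replicate block, which changed no call. The dLGN minus section difference inside genes passed 0.05 with 25000 (−1.80 points) and 100000 (−1.56 points) strongest regions (exact permutation p = 0.0286 each), and it was −1.002 to −0.14 with 1 library left out and −0.64 with the replicate block; the cause was not tested. The difference beyond 50 kb was 1.57 to 2.67 points, with an exact permutation p of 0.0571 without either PLX chow library, either control chow library or Fn14 KO 1. The promoter difference was −0.87 to −0.58 points, not past 0.05 without PLX chow 1. GC content, repeat share, similarity and motifs around all summits, and their alternatives, were not run. The −log10 p and the absence of peaks depend on depth, which is unknown here, and a peak missing from a list is not closed chromatin.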
